A study of Drosophila melanogaster with 12 samples.

Results

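Cytochrome P450 genes were followed in whole heads of adult Drosophila melanogaster that had lived alone or in company. Members were taken by symbol, as Cyp followed by a family number, lower-case subfamily letters and a gene number, and 1 row of that form was set aside by the rule. This gave 80 members of the 24228 rows of the count table, in 20 families, of which 13 families had 1 member. The largest were Cyp6 with 23 members and Cyp4 with 21, followed by Cyp9 and Cyp313 with 6 each, Cyp12 with 5, Cyp28 with 4 and Cyp309 with 2. Another 4 rows carried a P450 symbol with a suffix and were not counted as members.

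Cytochrome P450 enzymes are haem-containing monooxygenases that insert an oxygen atom into small lipophilic molecules. Most insect P450s sit in the endoplasmic reticulum and take electrons from the reductase Cpr, whereas the mitochondrial members take them from ferredoxins. In flies they make and break down the moulting hormone, make cuticular hydrocarbons, and detoxify plant compounds and insecticides, for which the fat body, gut and Malpighian tubules are known sites.

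All libraries were polyA RNA from the ORE-R strain, with 200 heads pooled per sample. Both sexes were housed together for 3 to 5 days after eclosion and then kept for 7 days, some alone and some 25 to a group of their own sex. The 4 groups were isolated females, grouped females, isolated males and grouped males, with 3 libraries each; group housing was the control. Replicate 0 of every group was in batch 1 and replicates 1 and 2 were in batch 2. Nothing in the labels tells if these pools were raised as separate cultures; the p-values therefore describe variation among libraries only, which could be technical. The column of isolated male replicate 1 is marked as merged.

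Counts per library summed to between 2584050 and 9637727 in isolated females, 5351208 and 17122099 in grouped females, 5312973 and 14535524 in isolated males, and 6291972 and 14319293 in grouped males. Isolated female replicates 1 and 2 were the shallowest, with 2584050 and 3224485 counts, and stood apart from the rest in a principal component analysis. Photoreceptor and neuron markers were present in every library, as the label of a head requires. Because these are bulk samples, fewer cells of a type and less RNA per cell cannot be told apart.

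The low-count filter kept 70 of the 80 members among 10238 rows tested. The 10 others were Cyp310a1, Cyp6a18, Cyp6g2, Cyp313a2, Cyp6a14, Cyp313a3, Cyp303a1, Cyp4ad1, Cyp316a1 and Cyp313a5. All but Cyp6a18 and Cyp310a1 had at most 10 reads in any library. Cyp6a18 had 167 reads in grouped male replicate 0 and at most 3 elsewhere, and Cyp310a1 had 46 reads in the same library and at most 15 elsewhere.

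Levels are given as CPM, counts scaled to the TMM-adjusted library size, and, where genes are compared with each other, as the same divided by exon length in kilobases (RPKM). On the RPKM scale the highest mean level over the 12 libraries was that of Cyp6g1, an enzyme known from insecticide resistance, at 266 RPKM, with libraries between 141 and 358. Cyp313a1 followed at 236 RPKM, with libraries between 102 and 347. Cyp28d1, known from resistance to nicotine, averaged 188 RPKM, Cyp28a5 174 and Cyp9f2 169.5. Cyp6a2, a drug-inducible enzyme also linked to insecticide resistance, averaged 159 RPKM, Cyp6d5 156 and Cyp9b2 148. The ranges of each of these 8 overlapped those of its neighbours in the order. The 12 members with the highest levels held 62.4% of the RPKM summed over all members.

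Isolated females had more P450 transcript than grouped females. All members together summed to 6727, 6287 and 6239 CPM in isolated females, against 4442, 4492 and 4355 CPM in grouped females. The same sums were 5972, 5922 and 5675 CPM in isolated males, against 6383, 5748 and 5032 CPM in grouped males. The groups did not overlap in females and overlapped in males. The highest grouped male sum, that of replicate 0, held 916 CPM of Cyp4g1 alone, against 98.2 and 157 CPM in grouped male replicates 1 and 2. As a share of all counts the family took 0.541% to 0.647% in isolated females and 0.395% to 0.505% in grouped females.

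**Figure D1:**
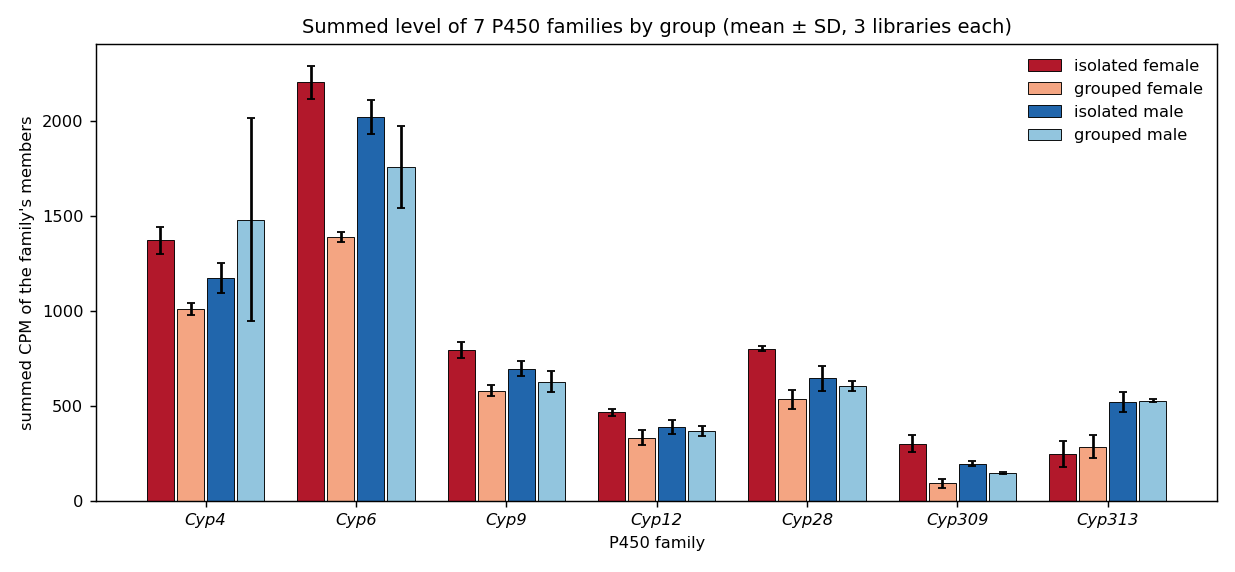
Summed CPM of the members of 7 P450 families (vertical axis) in isolated females, grouped females, isolated males and grouped males; bars are means of 3 libraries and error bars 1 SD. The Cyp6 bar reached 2203 CPM in isolated females and 1388 CPM in grouped females. The Cyp313 bar, nearly all Cyp313a1, was higher in both male groups than in both female groups.

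The Cyp6 members summed to 2203 ± 86.3 CPM in isolated females and 1388 ± 25.8 CPM in grouped females (SD, n = 3 each). The Cyp9 sums were 793.8 ± 41.5 and 579.6 ± 28.2 CPM in isolated and grouped females, and the Cyp28 sums were 800.9 ± 14.1 and 533.6 ± 51.5 CPM in the same order (SD, n = 3 each). The 2 Cyp309 genes had 299.4 ± 44.3 CPM in isolated females and 92.98 ± 23.8 CPM in grouped females (SD, n = 3 each). The Cyp313 sum departed from this pattern, with 247.5 ± 69.3 CPM in isolated females and 285.4 ± 61.2 CPM in grouped females (SD, n = 3 each), a difference within the spread. Nearly all of that sum was 1 gene, Cyp313a1, with means of 237.5 CPM in isolated females and 273.5 CPM in grouped females. The single genes Cyp301a1 and Cyp49a1, at low levels, were on the lower side in isolated females and did not pass the test.

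In the test of isolation in females, 22 of the 70 tested members rose and 1 fell at an adjusted p under 0.05 (edgeR quasi-likelihood test, Benjamini-Hochberg adjustment over all rows). Over all rows tested, 3.26% rose and 0.215% fell, 3.48% in all. The median log2 fold change, isolated over grouped, was 0.23 over the members and -0.02 over all rows. The CPM of the groups did not overlap for 27 members that were higher in isolated females, a condition met by 9.23% of all rows, and for 3 that were lower, met by 7.07%. The members that rose were 9 of 20 tested in Cyp6, 4 of 20 in Cyp4, 2 of 6 in Cyp9, 2 of 4 in Cyp28, 2 of 5 in Cyp12, 2 of 2 in Cyp309 and Cyp305a1. Of the 3 tested Cyp313 genes, 0 passed in edgeR, 0 in DESeq2 and 0 in limma-voom, and 0 had an unadjusted edgeR p under 0.05.

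Among these, 6 members kept their call in each of the 12 fits that left out 1 library, namely Cyp4s3, Cyp309a1, Cyp309a2, Cyp9b2, Cyp6w1 and Cyp6v1. The other 17 lost it in 1 to 10 of those fits, and the number of members called dropped to 9, 13 and 12 without isolated female replicates 0, 1 and 2 and to 11 without grouped female replicate 0. Scaling by library totals alone, which moved the median of all rows to -0.23, left 6 members higher and 1 lower. These were not the same 6, since Cyp6v1 lost its call in that fit and Cyp6g1 kept it.

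Cyp4s3, a Cyp4 member on chromosome X (FBgn0030615, 15113302 to 15116542 on the minus strand of BDGP6.54), had the largest change. Its level was 86.4, 90.4 and 64.5 CPM in isolated females, against 15.3, 11.5 and 13.2 CPM in grouped females. Every isolated female library was far above every grouped one, and the log2 fold change was 2.58 ± 0.19 (SE), with a 95% interval of 2.19 to 2.98, or 6-fold (edgeR adjusted p = 5.71e-07). Within batches the log2 difference was 2.48 in batch 1 and 2.61 in batch 2. An exon of Rab3-GEF on the other strand overlaps Cyp4s3 over 461 bases, and the strand setting used in counting is unknown from the sources used here; Rab3-GEF itself had a log2 fold change of 0.30 (edgeR adjusted p = 0.449).

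Cyp309a1 and Cyp309a2 are neighbours on chromosome 2L (FBgn0031432, 2562483 to 2564830, and FBgn0041337, 2564886 to 2573037, both on the minus strand of BDGP6.54). Cyp309a1 stood at 188, 148 and 164 CPM in isolated females, against 61.6, 54.2 and 29.3 CPM in grouped females. Cyp309a2 stood at 161, 119 and 118 CPM in isolated females, against 48.2, 49.1 and 36.5 CPM in grouped females. Neither gene overlapped between the groups, and both rose, by 1.78 ± 0.22 (log2, SE) for Cyp309a1 (edgeR adjusted p = 0.00012) and 1.57 ± 0.17 for Cyp309a2 (edgeR adjusted p = 2.75e-05). The batch 1 and batch 2 differences were 1.61 and 1.96 for Cyp309a1, and 1.74 and 1.48 for Cyp309a2.

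**Figure D2:**
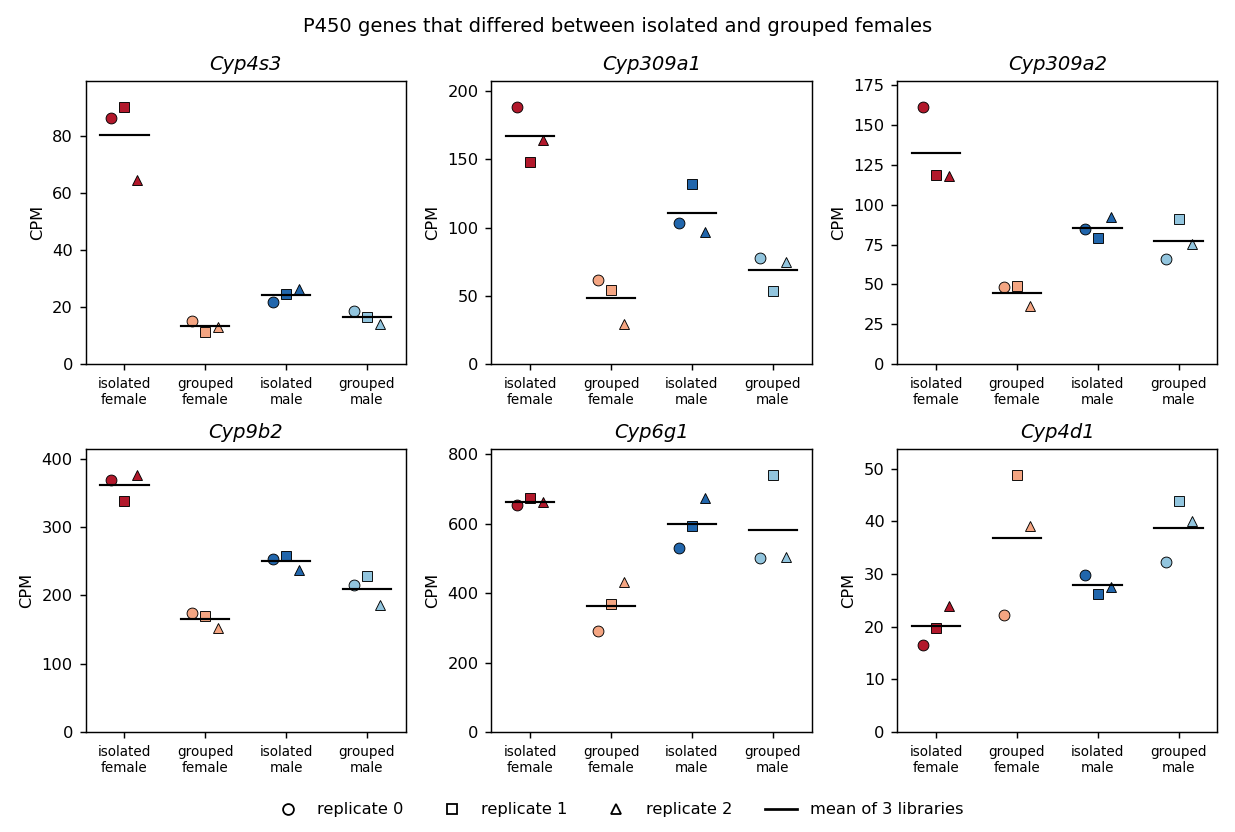
CPM of Cyp4s3, Cyp309a1, Cyp309a2, Cyp9b2, Cyp6g1 and Cyp4d1 in each library (vertical axis, a scale for each gene) of isolated females, grouped females, isolated males and grouped males; points are libraries and lines the mean of 3. Isolated females stand above all 3 other groups for Cyp4s3, Cyp309a1, Cyp309a2 and Cyp9b2, at 64.5 CPM or more for Cyp4s3, and below most of them for Cyp4d1.

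Cyp9b2 had 369, 338 and 376 CPM in isolated females, against 174, 170 and 152 CPM in grouped females. It rose by 1.13 ± 0.13 (log2, SE; edgeR adjusted p = 5.93e-05), with 1.08 in batch 1 and 1.15 in batch 2. Its neighbour Cyp9b1 did not pass, with a log2 fold change of -0.10 and a 95% interval of -0.50 to 0.31. Cyp9h1 rose by 0.72 ± 0.17 (log2, SE; edgeR adjusted p = 0.0254). Cyp9f2, the Cyp9 gene with the highest RPKM, had 311, 299 and 290.4 CPM in isolated females, against 278, 312 and 296 CPM in grouped females. Its groups overlapped, and its log2 fold change of 0.02 had a 95% interval of -0.26 to 0.31.

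In the Cyp6 family, which holds several genes known from resistance to insecticides and plant toxins, Cyp6g1 had 654, 674 and 662 CPM in isolated females, against 292, 369 and 433 CPM in grouped females. The groups did not overlap, and the rise was 0.88 ± 0.17 (log2, SE; edgeR adjusted p = 0.00543), with 1.16 in batch 1 and 0.74 in batch 2. Its exons share 94 bases with Cyp6g2, which had too few reads to be tested. Cyp6w1 had 228, 194 and 253 CPM in isolated females, against 145, 118 and 111 CPM in grouped females, and rose by 0.85 ± 0.14 (log2, SE; edgeR adjusted p = 0.00206). Cyp6d5 had 309.6, 302 and 370.2 CPM in isolated females, against 199.8, 216 and 171 CPM in grouped females. Here too every isolated library was above every grouped one, and the rise was 0.74 ± 0.14 (log2, SE; edgeR adjusted p = 0.00608).

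Cyp6v1 rose by 0.95 ± 0.18 (log2, SE; edgeR adjusted p = 0.00507), Cyp6a22 by 0.79 ± 0.17 and Cyp6a2 by 0.71 ± 0.16 (log2, SE; edgeR adjusted p = 0.0113 and 0.0184). Cyp6v1 shares 557 bases with the antisense gene asRNA:CR45466, so reads of the pair cannot be told apart without strand. Cyp6a8, which hydroxylates fatty acids, rose by 0.63 ± 0.15 (log2, SE; edgeR adjusted p = 0.03). Among the Cyp6 members that rose, the largest changes were those of 2 genes with low levels: Cyp6a16, with 13.5, 13.5 and 7.29 CPM in isolated females, against 7.09, 2.12 and 1.86 CPM in grouped females, and Cyp6d2, with 27.9, 18.0 and 17.7 CPM against 11.2, 9.77 and 3.30 CPM. Their log2 fold changes were 1.74 ± 0.41 and 1.37 ± 0.33 (SE; edgeR adjusted p = 0.0254 and 0.0301). The groups did not overlap for either, and Cyp6d2 shares 897 bases with nsr.

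In the Cyp4 family, whose members are known as fatty acid hydroxylases in many animals, Cyp4d8 rose by 1.02 ± 0.22, Cyp4e2 by 0.88 ± 0.16 and Cyp4ac1 by 0.77 ± 0.17 (log2, SE; edgeR adjusted p = 0.0126, 0.00445 and 0.0134). Cyp4e2 stood at 189, 115 and 133 CPM in isolated females, against 96.9, 72.5 and 67.8 CPM in grouped females. Cyp4ac1 stood at 250.3, 343 and 282 CPM in isolated females, against 117, 176 and 226 CPM in grouped females. The groups did not overlap for either gene. Cyp4d1 was the member that fell, with 16.5, 19.8 and 23.9 CPM in isolated females, against 22.3, 48.8 and 39.2 CPM in grouped females. Its groups overlapped through grouped female replicate 0, and its fold change of -0.83 ± 0.22 (log2, SE; edgeR adjusted p = 0.0444) was -0.43 in batch 1 and -1 in batch 2. The Cyp4d1 call was lost in 8 of the 12 fits without 1 library: those without any isolated female, without grouped female replicate 1, without isolated male replicate 2 and without any grouped male.

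Cyp28d1 had 408, 381 and 376 CPM in isolated females, against 205, 269 and 221 CPM in grouped females, and rose by 0.75 ± 0.16 (log2, SE; edgeR adjusted p = 0.0146). It shares 51 bases with CG7742, whose log2 fold change was -0.29 (edgeR adjusted p = 0.85). Its neighbour Cyp28d2 rose by 0.76 ± 0.20 (log2, SE; edgeR adjusted p = 0.0458), a call lost in 10 of the 12 fits without 1 library: all but those without grouped female replicate 2 or grouped male replicate 2. Cyp12 members are mitochondrial P450s, and Cyp12a4 is known from resistance to lufenuron. Cyp12a4 had 237, 298 and 260.2 CPM in isolated females, against 147, 192 and 135 CPM in grouped females, without overlap. Cyp12a4 and Cyp12c1 rose by 0.75 ± 0.17 and 0.78 ± 0.19, and Cyp305a1 by 0.68 ± 0.16 (log2, SE; edgeR adjusted p = 0.016, 0.0254 and 0.0207).

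**Figure D3:**
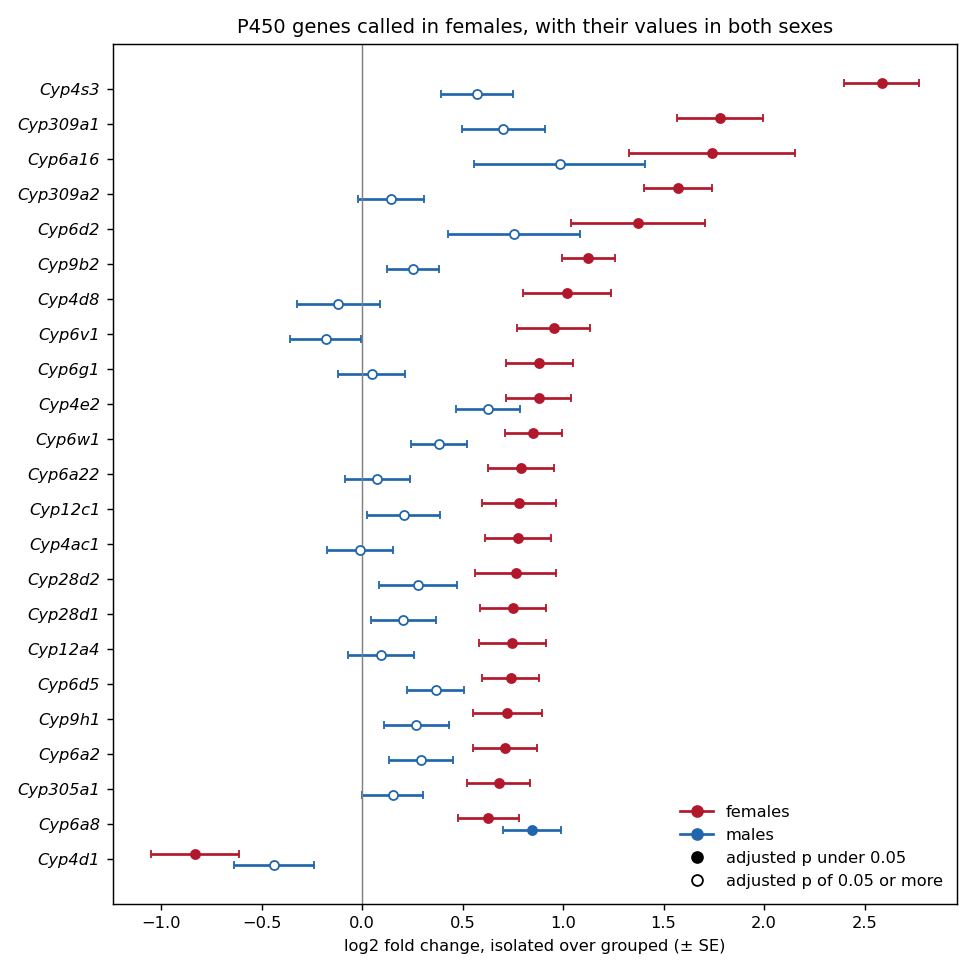
Log2 fold change, isolated over grouped, with its SE (horizontal axis) for the 23 members that passed in females (rows), in females and in males; filled symbols have an edgeR adjusted p under 0.05. The female values run from 2.58 for Cyp4s3 to -0.83 for Cyp4d1, and in males Cyp6a8 alone is filled.

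Members that rose lay on all 5 large chromosome arms. Counts of members that rose in isolated females were 6 of 10 tested on chromosome 2L, 9 of 29 on 2R, 3 of 5 on 3L, 2 of 12 on 3R and 2 of 14 on X. Over all rows tested the shares that rose were 3.6% on 2L, 3.14% on 2R, 2.93% on 3L, 3.72% on 3R and 3.23% on X, and the difference between arms was not tested for the members. In BDGP6.54, 43 members lay within 10000 bases of another member, in 15 groups, and 12 of the 36 of these that were tested rose, with a median log2 fold change of 0.28. Of the 34 tested members outside such groups 10 rose and 1 fell, with a median of 0.18. Over all rows tested 3.26% rose and 0.215% fell. The difference between members inside and outside such groups was not tested. Neighbours did not always share a call: Cyp4ac1 rose while Cyp4ac2 and Cyp4ac3 had log2 fold changes of 0.12 and -0.03, Cyp12a4 rose while Cyp12a5 had 0.13, and Cyp4e2 rose while Cyp4e1 had -0.16. Differences between neighbours were not tested. In the largest group, of 9 genes on 2R, Cyp6a22 and Cyp6a8 rose, and the members that did not pass included Cyp6a20, which has been linked to aggression in male flies, and Cyp6a17, known from temperature preference.

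When the tested members were divided at their median level of 17.6 RPKM, 16 of the 35 above it rose, with a median log2 fold change of 0.44. Of the 35 below it, 6 rose and 1 fell, with a median of -0.03. Over all rows, 6.11% of those above the same level rose, with a median of 0.07, and 0.849% of those at or below it, with a median of -0.16. Genes with higher levels also have more reads, and the part of read depth in this contrast was not tested. Among members with high levels that missed the threshold, Cyp28a5 had a log2 fold change of 0.44 (edgeR adjusted p = 0.0747), Cyp4p1 0.38 (0.12) and Cyp313a1 -0.21 (0.654). Cyp301a1, known from cuticle formation, had 2.48, 2.25 and 0 CPM in isolated females, against 6.63, 5.80 and 2.89 CPM in grouped females; its log2 fold change of -1.73 had an adjusted p of 0.18 in edgeR and 0.0408 in DESeq2.

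Members with known roles in the brain or in hormone synthesis did not pass in either sex. Cyp4g15, the brain-expressed relative of Cyp4g1, had 234, 167 and 155 CPM in isolated females, against 204, 158 and 125 CPM in grouped females, and 235, 163 and 149 CPM in isolated males, against 271, 195 and 135 CPM in grouped males. In every group the library of batch 1, given first, was the highest, and the groups overlapped. Its log2 fold change, isolated over grouped, was 0.19 in females, with a 95% interval of -0.12 to 0.51, and -0.12 in males, with an interval of -0.43 to 0.19. For Cyp6t3, known from ecdysone synthesis in larvae, the female value was -0.17, with an interval of -0.68 to 0.33, and the male value 0.13, with an interval of -0.35 to 0.61. Cyp6a17 was at 1.52 to 3.82 CPM in every library, and its female value of -0.08 had the wide interval of -1.08 to 0.91.

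Genes that work with P450s were read beside them. Of the 6 tested genes listed as redox partners, 2 rose in isolated females, of which Cpr is an established electron donor. Cpr, the reductase that feeds microsomal P450s, had 318, 429 and 400 CPM in isolated females, against 223, 276 and 235 CPM in grouped females, and rose by 0.64 ± 0.16 (log2, SE; edgeR adjusted p = 0.0357). The other, Cyt-b5-r, which encodes a cytochrome b5-related protein and is not established as such a donor, had 604, 769 and 729 CPM against 323, 372 and 341 CPM, and rose by 1.02 ± 0.18 (log2, SE; edgeR adjusted p = 0.0029). A list of 13 regulators of P450 genes held cnc, Keap1 and maf-S and also hormone receptor genes such as EcR, usp, Met and gce. Of these 13, 0 passed by any of the 3 tools. Hnf4 alone had an unadjusted edgeR p under 0.05, at a log2 fold change of 0.30 (adjusted p = 0.252). Of 9 tested hydrocarbon synthesis genes, a list that also holds Cpr, Cpr alone passed in edgeR, while DESeq2 and limma-voom called 2 each; ACC had a log2 fold change of 0.77 (edgeR adjusted p = 0.0585). Of the ecdysteroid P450s with other symbols, sad and shd were tested, and 0 passed in edgeR, DESeq2 or limma-voom, with 0 at an unadjusted edgeR p under 0.05.

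Most fat body markers also rose in isolated females, by uneven amounts. Of 13 tested fat body markers, 9 rose in isolated females, with a median log2 fold change of 1.17. The values ran from 0.18 for Lsd-1 to 5.30 for Fbp1, with 4.45 for Lsp1alpha and 3.44 for Lsp2. Lsp1beta, apolpp, Yp1 and Lsd-1 did not pass in edgeR, at 0.70, 0.87, 1.17 and 0.18. The summed level of the whole list, on library totals, was 57200 to 72000 CPM in isolated females and 28400 to 36500 CPM in grouped females. No marker of the list was at 0 in any group. Of other cell types, 0 of 10 neuron markers and 0 of 10 photoreceptor markers passed in edgeR, DESeq2 or limma-voom, with 0 at an unadjusted edgeR p under 0.05, and their sums overlapped. Neuron sums were 5470 to 5690 CPM in isolated females and 4670 to 6530 CPM in grouped females, and photoreceptor sums were 14300 to 17700 and 16800 to 19400 CPM in the same order. Of 7 tested oenocyte markers 0 passed in edgeR, DESeq2 or limma-voom, with 1 higher at an unadjusted edgeR p under 0.05. Oenocyte markers summed to 1410 to 1670 CPM in isolated females and 1280 to 1760 CPM in grouped females. Most of this sum was Desat1, at 1102, 1548 and 1523 CPM in isolated females and 811, 1139 and 1612 CPM in grouped females (TMM-scaled). The sum thus mainly follows that gene. Of 8 glia markers 1, Indy, a transporter also known from fat body, rose by 0.62 (log2; edgeR adjusted p = 0.0147), also called by DESeq2 and limma-voom, and glia sums were 2420 to 2790 CPM in isolated females and 2400 to 2540 CPM in grouped females. Of 7 antennal support markers 0 passed in edgeR, DESeq2 or limma-voom, with 2 higher at an unadjusted edgeR p under 0.05, and their sums were 125 to 244 CPM in isolated females and 122 to 279 CPM in grouped females. The part of fat body content, and of the low depth of isolated female replicates 1 and 2, in the P450 result was not tested. With isolated females represented by replicate 0 alone, an arm of 1 library assumed to vary like the other groups, 4 members were called, namely Cyp4s3, Cyp309a1, Cyp309a2 and Cyp9b2; this fit is no test of the part of depth.

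In males, Cyp6a8 was the single member that passed. It had 134, 90.8 and 129 CPM in isolated males, against 75.0, 61.5 and 59.9 CPM in grouped males, so every isolated library was above every grouped one. It rose by 0.84 ± 0.15 (log2, SE; edgeR adjusted p = 0.0329), with 0.83 in each batch. Over all rows 0.0195% rose and 0.0586% fell, 0.0781% in all. The call was lost in 5 of the 12 fits without 1 library, namely those without isolated male replicate 0 or 2 or any 1 of the 3 grouped males, with adjusted p up to 0.468 without grouped male replicate 0. At an unadjusted edgeR p under 0.05, 8 members were higher and 3 lower in isolated males. Over all 10238 rows tested, 272 had such a p, in either direction. Among the 13 tested fat body markers 0 passed in males in edgeR, with 3 at an unadjusted p under 0.05, 1 called by DESeq2 and 0 by limma-voom, and their sums of 15200 to 18600 CPM in isolated males and 14700 to 18200 CPM in grouped males overlapped. Of the 6 redox partners and 13 regulators 0 passed in males by any of the 3 tools, and 0 had an unadjusted edgeR p under 0.05.

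The male median log2 fold change was 0.13 over the 70 members and 0.00 over all rows. The CPM of isolated males did not overlap with those of grouped males for 13 members that were higher, a condition met by 3.19% of all rows, and for 3 that were lower, met by 2.62%. Of the members that did not pass in males, Cyp4e2 had a log2 fold change of 0.63 (edgeR adjusted p = 0.414), Cyp309a1 0.70 (0.799) and Cyp4s3 0.57 (0.919). Cyp6w1 had 201, 208 and 239 CPM in isolated males, against 174, 158 and 166 CPM in grouped males, without overlap, and a log2 fold change of 0.38 (edgeR adjusted p = 1). Cyp6d5 likewise did not overlap, with 251, 293 and 305 CPM in isolated males, against 227, 227 and 204 CPM in grouped males, and had 0.37 (edgeR adjusted p = 1). Cyp6a20 had 23.4, 19.1 and 23.2 CPM in isolated males, against 17.2, 27.7 and 15.7 CPM in grouped males. Its male groups overlapped, and its log2 fold change of 0.12 had a 95% interval of -0.42 to 0.67; in females the value was -0.21, with an interval of -0.78 to 0.37.

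Cyp4g1, the oenocyte enzyme that completes the synthesis of cuticular hydrocarbons, had 63.6, 34.7 and 56.8 CPM in isolated males, against 916, 98.2 and 157 CPM in grouped males. The groups did not overlap, and the log2 fold change of -2.55 ± 0.66 (SE) had an adjusted p of 0.882 in edgeR, 0.0247 in DESeq2 and 9.01e-47 in edgeR when rows with few reads were kept. That last fit also took the male Cyp6a8 value from 0.0329 to 3.39e-05 (edgeR adjusted p), at log2 fold changes of 0.84 and 0.86. Its p-values therefore call for caution. Without grouped male replicate 0, which held 14110 Cyp4g1 reads, the Cyp4g1 fold change was -1.42 (log2; edgeR adjusted p = 0.271). That library also had the gut and Malpighian tubule markers at 164 CPM in sum, against 1.31 to 6.97 CPM in the other libraries. Of 4 tested testis and accessory gland markers, 2 were lower in isolated than in grouped males by all 3 tools, loopin-1 at -4.67 and S-Lap2 at -4.78 (log2; edgeR adjusted p = 0.0178 and 0.0137). In grouped male replicate 0 these stood at 52.5 and 38.5 CPM and Acp36DE, which was not tested, at 42.8 CPM, against at most 4.68, 4.81 and 2.91 CPM in any other library. That whole list summed to 356 to 463 CPM in isolated males and 397 to 647 CPM in grouped males, with SP and Mst84Da at 0 in all isolated males. Most of this sum was bol, at 432, 319 and 409 CPM in isolated males and 437, 403 and 604 CPM in grouped males (TMM-scaled). In isolated females bol stood at 403, 467 and 471 CPM, so the sum does not follow male reproductive tissue. The fatty acid synthases FASN2 and FASN3 stood at 70.0 and 65.0 CPM in grouped male replicate 0. What part this library's make-up has in the Cyp4g1 level was not tested. In a comparable case outside the calls, Cyp6a19 had 237 reads in grouped female replicate 1 and at most 18 elsewhere, and ovary markers summed to 119 CPM in that library, against 1.27 to 27.0 CPM in the others, and this too was not tested.

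The female and male comparisons share no library. Of the 22 members that rose in isolated females, 19 were also on the positive side in males, as were 81.1% of all rows that rose in females. On that side, 8 of the 22 had an unadjusted edgeR p under 0.05 in males. In either direction, 272 of all 10238 rows tested had such a p in males. The median of the 22 was 0.82 in females and 0.26 in males, where the values ran from -0.18 to 0.98. Because the 22 were chosen by their female calls, their female median is raised by that choice. These 2 medians therefore do not compare the sexes. Over all 70 tested members the medians were 0.23 in females and 0.13 in males. Across the 70 members the 2 sets of log2 fold changes had a Pearson r of 0.43 and a Spearman rho of 0.42, as a description, since genes of the same libraries are not independent; over all rows r was 0.13. Of all 70 members 49 were positive in males, against 49.5% of all rows.

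The difference between the female and male responses was tested directly, with the same 12 libraries. It passed for 3 members, all with the larger rise in females, against 0.430% of all rows. No member passed in the other direction, as 0.00977% of all rows did, and 0 were on that side at an unadjusted edgeR p under 0.05; DESeq2 called 6 members and limma-voom 3. The difference in log2 fold change was 2.01 ± 0.26 (SE) for Cyp4s3, 1.43 ± 0.24 for Cyp309a2 and 0.87 ± 0.18 for Cyp9b2 (edgeR adjusted p = 0.000809, 0.00679 and 0.046). In isolated males Cyp4s3 had 21.9, 24.8 and 26.5 CPM, against 18.6, 16.6 and 14.1 CPM in grouped males. For Cyp309a2 the levels were 85.0, 79.2 and 92.4 CPM in isolated males, against 65.9, 90.9 and 75.2 CPM in grouped males, and these overlapped. Cyp9b2 had 253, 258 and 238 CPM in isolated males, against 215, 228 and 186 CPM in grouped males. The Cyp309a2 difference missed the threshold without isolated female replicate 0 (edgeR adjusted p = 0.0508), and that of Cyp9b2 in 10 of the 12 fits without 1 library. Cyp6v1 came next, at 1.14 (edgeR adjusted p = 0.0662), followed by Cyp4d8 at 1.14 (0.148) and Cyp309a1 at 1.08 (0.198).

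Female and male heads were also compared within each housing condition; these comparisons share their libraries with those of housing. Under isolation 9 members were higher and 3 lower in females than in males, against 3.60% and 0.635% of all rows, 4.24% in all. Under group housing 1 member was higher and 7 were lower in females, against 1.49% and 1.23% of all rows, 2.73% in all. The CPM of the sexes did not overlap under isolation for 21 members that were higher and 9 that were lower in females, met by 11.9% and 10.1% of all rows, and under group housing for 2 that were higher and 13 that were lower, met by 7.32% and 6.62%. Scaling by library totals alone turned the split under isolation to 4 higher and 4 lower, with a median of -0.23 over all rows. Under group housing 4 members were called without grouped female replicate 0 or grouped male replicate 1, and 5 without grouped female replicate 1 or grouped male replicate 0 or 2; under isolation 7 were called without replicate 1 of isolated females, and likewise 7 without replicate 2 of isolated males.

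Cyp18a1, which inactivates the moulting hormone 20-hydroxyecdysone, was higher in females under both conditions. It had 50.1, 27.0 and 40.6 CPM in isolated females, against 19.7, 13.7 and 10.4 CPM in isolated males, and 32.0, 46.2 and 36.9 CPM in grouped females, against 22.1, 17.9 and 17.5 CPM in grouped males. No female library overlapped with a male one of the same housing, and the log2 fold change, female over male, was 1.43 ± 0.23 under isolation and 1.02 ± 0.23 under group housing (SE; edgeR adjusted p = 0.00162 and 0.0197). The call under group housing was lost in 4 of the 12 fits, those without grouped female replicate 1 or any 1 of the grouped males (adjusted p up to 0.0913), and without a batch term. Its response to isolation did not pass in females, at 0.02 with a 95% interval of -0.46 to 0.51.

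Cyp313a1, Cyp4d14 and Cyp6a8 were lower in females under both conditions. Cyp313a1 had 299, 248 and 165 CPM in isolated females, against 563, 488 and 468 CPM in isolated males, and 327, 211 and 283 CPM in grouped females, against 518, 518 and 511 CPM in grouped males. The female and male libraries were separate in both conditions, and the log2 fold changes were -1.11 ± 0.18 under isolation and -0.93 ± 0.17 under group housing (SE; edgeR adjusted p = 0.00128 and 0.00534). Cyp4d14 had 7.01, 3.60 and 0.69 CPM in isolated females, against 19.3, 15.6 and 11.6 CPM in isolated males, and 2.72, 1.98 and 0.41 CPM in grouped females, against 18.0, 12 and 13.5 CPM in grouped males. Its log2 fold changes were -2.08 ± 0.43 and -3.06 ± 0.44 (SE; edgeR adjusted p = 0.0102 and 0.00054). Nearly all of Cyp4d14 is overlapped by other genes, among them asRNA:CR45479, which was itself lower in females, at -1.69 under isolation and -1.85 under group housing (edgeR adjusted p = 0.00011 and 2.49e-05), so their reads cannot be told apart without strand. Cyp6a8 had 83.9, 51.3 and 60.0 CPM in isolated females and 46.1, 40.6 and 39.4 CPM in grouped females, below the male libraries of the same housing given above. Its log2 fold changes were -0.85 ± 0.15 and -0.64 ± 0.15 (SE; edgeR adjusted p = 0.0028 and 0.0265), and the second missed the threshold without grouped female replicate 0 or any 1 of the grouped males (adjusted p up to 0.185), with library totals alone, without a batch term and in batch 2 alone.

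**Figure D4:**
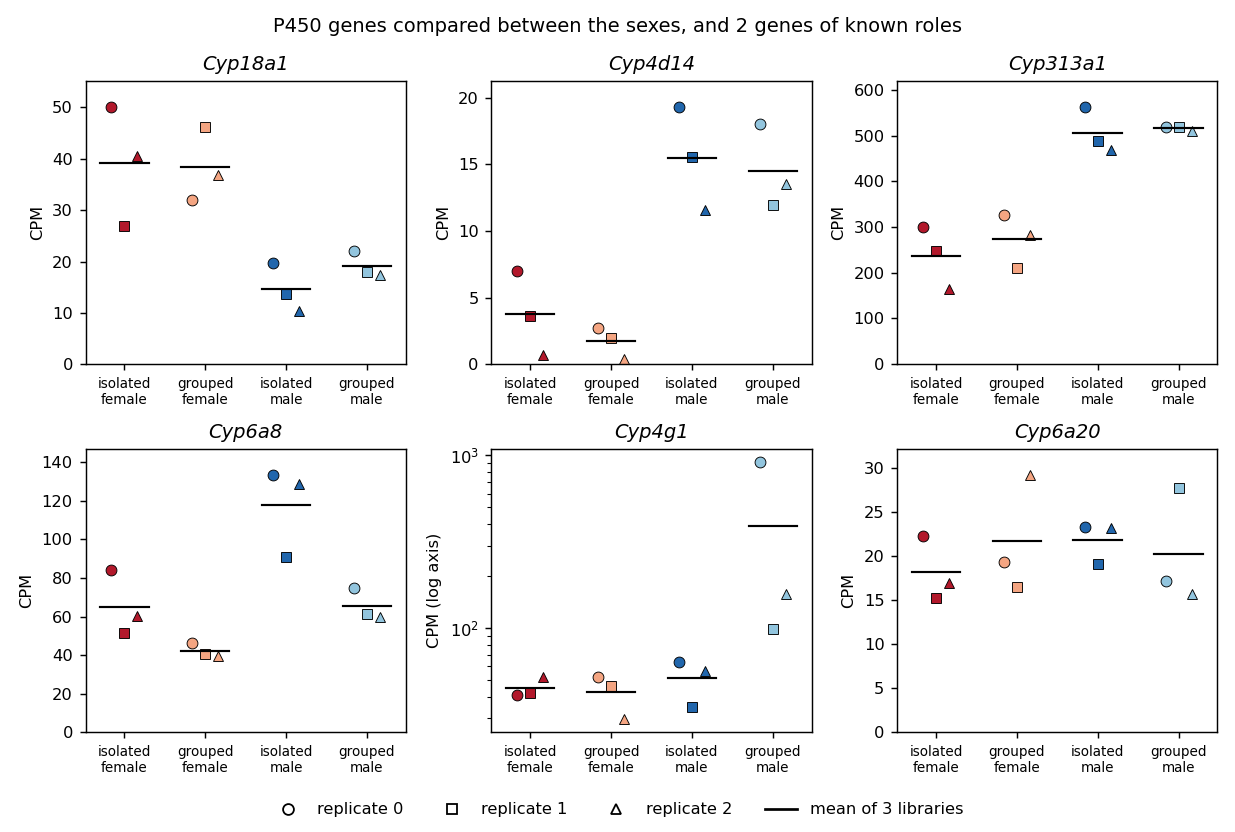
CPM of Cyp18a1, Cyp4d14, Cyp313a1, Cyp6a8, Cyp4g1 (log axis) and Cyp6a20 in each library (vertical axis) of isolated females, grouped females, isolated males and grouped males; points are libraries and lines the mean of 3. Female points lie above male points for Cyp18a1 and below them for Cyp313a1 and Cyp4d14, and 1 grouped male library of Cyp4g1 stands at 916 CPM.

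The sex comparison of Cyp309a2 had opposite signs in the 2 housing conditions. It was 0.64 ± 0.17 under isolation and -0.79 ± 0.17 under group housing (log2, female over male, SE; edgeR adjusted p = 0.037 and 0.0146). The value under isolation lost its call in 8 of the 12 fits without 1 library, those without any isolated library, grouped female replicate 0 or grouped male replicate 2 (adjusted p up to 0.225), and also with library totals alone, without a batch term and in batch 2 alone. The value under group housing lost it in 3, those without grouped female replicate 0 or grouped male replicate 1 or 2. Other members that were higher in females under isolation were Cyp4s3 at 1.72, Cyp6a16 at 1.76, Cyp6v1 at 1.07, Cyp4ac1 at 0.87, Cyp4ac2 at 0.86, Cyp12c1 at 0.70 and Cyp9b2 at 0.53 (log2; edgeR adjusted p = 1.54e-05, 0.0207, 0.00199, 0.00542, 0.018, 0.0391 and 0.0256). Of these, Cyp12c1 lost its call in 8 of the 12 fits without 1 library, Cyp9b2 in 5, Cyp4ac2 in 4 and Cyp6a16 in 3, with isolated female replicate 1 among the libraries left out for each. Other members that were lower in grouped females than in grouped males were Cyp4d20 at -0.77, Cyp6g1 at -0.68 and Cyp4d2 at -0.68 (log2; edgeR adjusted p = 0.00263, 0.0362 and 0.0278). The Cyp6g1 call was lost in 7 of the 12 fits and that of Cyp4d2 in 4, among them for both the fits without grouped male replicate 1. Cyp4d2 is overlapped by asRNA:CR44690, which was also lower, at -0.83 (edgeR adjusted p = 0.0125). Cyp6g1 had 502, 742 and 504 CPM in grouped males, all above the 433 CPM of the highest grouped female library. Of 13 tested fat body markers, 11 were higher in isolated females than in isolated males. Under group housing 5 were higher in females, namely Fbp1, fit and the yolk protein genes Yp1, Yp2 and Yp3, and 1, Lsp1alpha, was lower. The markers that did not pass there ran from -0.54 for Lsp2 to 0.84 for Lsp1beta (log2, female over male). The list thus leans on yolk protein genes in this comparison. The part of fat body content in the sex comparisons of P450 genes was not tested.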

How the data were processed

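Gene counts per library were deposited by the authors as 1 table with 12 columns, 1 per sample. The tools HTSeq 2.0.5 (a read counter), STAR 2.7.10b (an aligner), edgeR 4.4.1 and Picard 2.27.5 are named, per the submitters' processing notes, under R 4.4.0 and without their roles. The sources used here give no genome build, annotation or strand setting. Lines that name no gene (10.2% to 13.2% of each column) entered neither library sizes nor tests. Rows were filtered with filterByExpr (minimum count 10, total 15), scaled by TMM and fitted over all 12 libraries with group and batch terms in edgeR 4.0.16 (R 4.3.3, quasi-likelihood test, two-sided). P-values were adjusted by Benjamini-Hochberg over all rows, with a threshold of 0.05. SEs of log2 fold changes were recovered from the F statistic, as log2 fold change/sqrt(F). Batch values are log2 CPM differences with a prior count of 2, and n is 1 against 1 library in batch 1. RPKM used exon-union lengths of BDGP6.54, matched by gene ID for all 80 members. Marker sums use library totals. Alternatives were DESeq2 1.42.0, limma-voom 3.58.1, other scalings, filters and batch terms, and leaving out each library. The code was tested on simulated counts with known changes, for the housing comparisons within each sex alone. Those counts were drawn from the fitted model itself. The sex comparisons and the difference in response were not simulated. Named members were those that passed in a housing comparison or in the difference between the sexes, those of smallest p in the male and sex comparisons, the 12 highest by RPKM and members with published roles, beside the lists of partners and regulators; Cyp6a19, Cyp6a18, Cyp310a1 and the neighbours of called members were named after their values were seen. Members and gene lists were chosen with earlier results of these data known. In the shallowest library 1 read is 0.45 CPM, which limits low genes such as Cyp4d14 and Cyp301a1. No sequences were used here.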

Additional observations from a re-analysis of the deposited data

Results flagged for a closer look

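For 3 members the response to isolation differed between the sexes by a test of the difference itself (edgeR interaction term, adjusted over all rows), and each had the larger rise in females. The difference in log2 fold change, female minus male, was 2.01 for Cyp4s3, 1.43 for Cyp309a2 and 0.874 for Cyp9b2. Cyp9b2 lost this call in 10 of the 12 fits without 1 library and Cyp309a2 in 1. In batch 2 alone all 3 lost it. The female changes were 2.58, 1.57 and 1.13 on the log2 scale, with isolated above grouped in every pair of female libraries for all 3 genes. Fat body markers also differed, with 3 of 13 tested passing in the same comparison, and their part in these differences was not tested.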

How the results depend on the processing

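No value of a named member that passed reversed its direction under any alternative. The count of 23 members called in females became 7 with library totals alone, 15 without a batch term, 6 in batch 2 alone, 4 with isolated females represented by replicate 0 alone, 14 with the female libraries alone, and 9 to 23 when 1 library was left out. The male count of 1 became 5 with no filter beyond 1 read, 2 in DESeq2, 0 without a batch term (8 at an unadjusted edgeR p under 0.05), 0 in batch 2 alone (10 at an unadjusted p under 0.05), and 0 to 1 when 1 library was left out. The count of 3 for the difference between the sexes in response became 1 with library totals alone, 6 with no filter, 6 in DESeq2, 0 in batch 2 alone (11 at an unadjusted edgeR p under 0.05), 1 with replicate 0 alone, and 2 to 4 when 1 library was left out. The grouped sex count of 8 became 4 without a batch term, 4 in batch 2 alone, 5 with the grouped libraries alone, and 4 to 8 when 1 library was left out. The isolated sex count of 12 became 7 in batch 2 alone, 2 with replicate 0 alone, and 7 to 15 when 1 library was left out. The cause of these shifts was not tested beyond the fewer libraries that several of them use. Shares of all rows called in each fit are not given here. A shift in the members therefore cannot be told from a shift in all rows. The fit with no filter beyond 1 read calls for the caution given above for its p-values. Over single genes 250 values lost and 11 gained a call, and 1507 kept their side of the threshold.

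With the replicate number as a block in place of batch the counts were 23, 1, 4, 8 and 13. Deviations from the group means were correlated between same-numbered isolated and grouped libraries. The values were 0.51, 0.18 and -0.03 in females and 0.37, -0.18 and 0.06 in males, and they still hold the batch difference. Centred within batch 2, replicates 1 and 2 gave -0.058 in females and -0.186 in males. Replicate 0 is alone in its batch, so pairing beyond batch cannot be judged for it. Isolated female replicates 1 and 2, with 2584050 and 3224485 counts, limit the precision for members with few reads.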
